A study of Mus musculus with 8 samples.

Results

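The genes described here are *Lgr5* and 9 other genes of the canonical Wnt pathway in mouse spermatogonial stem cell (SSC) culture, namely the R-spondin receptor genes *Lgr4* and *Lgr6*, the feedback genes *Axin2*, *Znrf3*, *Rnf43* and *Nkd1*, and the transcription factor genes *Lef1*, *Tcf7* and *Sp5*. They are 10 of the 55421 genes in the count table. The set was chosen by the measured level of *Lgr5*, which is high in nutrient-restricted cells and much lower when retinoic acid (RA) is also present, and the other 9 genes were taken with it as members of the same pathway. The values of *Lgr5* are for this reason a description and carry no test. All 10 genes passed the filter on low counts, which left 20477 genes to be tested. *Lgr5* passed it through the nutrient-restricted conditions, since each library of the other conditions held 10 counts or fewer.

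SSC culture was derived from testes of 6-day-old pups, F1 hybrids of the cross C57BL/6XDBA/2, and was grown on feeder cells of irradiated mouse embryonic fibroblasts from CF1 mice, so that RNA of the feeder cells can be part of a library. RNA-seq was performed after 48 h in 4 conditions with 2 libraries each, 8 in total, which the study describes as independent biological replicates. The vehicle cells (Veh) were in complete SSC medium and the RA cells received 100 nM RA in this medium. The nutrient-restricted cells (NR) were in 10% complete SSC medium and 90% Earle's balanced salt solution (EBSS), a salt solution with glucose but without amino acids or growth factors, and the NRRA cells received 100 nM RA in that mixture. All 4 conditions share the feeder cells, the hybrid background and the age of the pups, and none carries a genetic change.

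Wnt proteins are secreted ligands that bind Frizzled receptors and the coreceptors Lrp5 and Lrp6, which stops the destruction of β-catenin and lets it act with Tcf and Lef factors on target genes. Znrf3 and Rnf43 are membrane ubiquitin ligases that remove Frizzled receptors from the cell surface, and R-spondins counter them by binding the receptors Lgr4, Lgr5 and Lgr6. *Axin2*, *Nkd1*, *Sp5*, *Lef1*, *Znrf3* and *Lgr5* are themselves widely used as readouts of the pathway, and *Lgr5* is best known as a marker of intestinal stem cells.

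The libraries held between 19261333 and 30023585 counts, so that 1 CPM (1 read per 1000000 reads of a library, with totals scaled by TMM) stood for 19.2 to 31.1 reads. The labels were checked with 8 genes of the RA response, all of which were called higher in RA vs Veh and in NRRA vs NR, where 4.74% and 4.56% of all genes were. The germ cell genes *Ddx4* and *Dazl* were present in every library, at 131 to 191 CPM and 299 to 467 CPM. Another of the 6 germ cell genes, *Dppa3*, was called lower in NRRA vs NR (log2 difference -5.83). Of 8 Sertoli cell genes, *Fshr* had at most 1 count, but 5 passed the filter on low counts. The Sertoli cell list summed to 38.5 to 41.1 CPM in Veh, 27.1 CPM in both RA libraries, 45.9 to 49.0 CPM in NR and 15.6 to 17.0 CPM in NRRA. The summed level of 11 fibroblast genes was 10031 to 10298 CPM in Veh, 8183 to 8861 CPM in RA, 21316 to 22402 CPM in NR and 19013 to 19562 CPM in NRRA. In NR vs Veh, 5 of these 11 genes were called higher and 1 lower, where 5.33% and 2.96% of all genes were. No fibroblast gene was at 0.

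Among the R-spondin receptors, *Lgr5* (ENSMUSG00000020140, chr10:115450311-115587780 on the minus strand of GRCm38) was detected at a substantial level only in NR. The Veh libraries held 1 and 7 of its reads, the RA libraries 5 and 10, the NR libraries 242 and 341, and the NRRA libraries 20 and 32. As levels these were 0.0495 and 0.365 CPM in Veh, 0.255 and 0.347 CPM in RA, 11.7 and 12.9 CPM in NR, and 0.715 and 1.03 CPM in NRRA. Both NR libraries stood far above all others, both NRRA libraries lay above the Veh and RA libraries, and the Veh and RA libraries overlapped.

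With the counts of both libraries pooled, *Lgr5* in NR was 60.9 times its level in Veh, with a 95% exact (Clopper-Pearson) counting interval of 30.7 to 142, and 14.1 times its level in NRRA (10.6 to 19.1). The level in NRRA was in turn 4.33 times that in Veh (2.04 to 10.6), and the fitted log2 difference of 2.08 became 1.26 without Veh replicate 1 and 4.02 without Veh replicate 2. The level in RA was 1.52 times that in Veh (0.606 to 4.15), and a difference between these conditions was not detectable at this depth. These intervals cover counting error only and not the spread between libraries. Because the set was chosen by the levels of *Lgr5* in NR and NRRA, they are no test of those differences. The fitted log2 difference between NR and Veh was 5.89, and over the fits without 1 library it ranged from 5.08 without Veh replicate 1, which has 1 count, to 7.84 without Veh replicate 2, which has 7. In such libraries of whole cultures, fewer cells of a type and less RNA per cell cannot be told apart.

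*Lgr4* (ENSMUSG00000050199, chr2:109917647-110014257, plus strand), which encodes the most widely expressed of these receptors, moved in the same direction as *Lgr5* but over a much smaller range. It was at 19.7 and 21.7 CPM in Veh, 25.3 and 24.0 CPM in RA, 41.2 and 43.9 CPM in NR, and 33.6 and 34.3 CPM in NRRA. The conditions followed in the order Veh, RA, NRRA and NR, and no neighbours in that order overlapped. *Lgr4* rose in NR vs Veh by 1.04 ± 0.0728 on the log2 scale (SE, n = 2 libraries per condition, edgeR quasi-likelihood test, adjusted p = 5.03e-12). A gene was called where the adjusted p was under 0.05 and the fold change at least 2, and this one was just inside that threshold; without Veh replicate 1 the value was 0.99 and *Lgr4* was no longer called.

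With RA in the restricted medium *Lgr4* was lower than without it, by a log2 difference of -0.33 ± 0.0640 (edgeR adjusted p = 0.000137). In complete medium RA had the opposite sign, 0.25 ± 0.0781 (edgeR adjusted p = 0.0126), a difference that did not pass the test without Veh replicate 1 or without RA replicate 1. The effect of RA on *Lgr4* thus differed between the media by -0.57 ± 0.101 on the log2 scale (edgeR interaction test, adjusted p = 0.000218).

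*Lgr6* (ENSMUSG00000042793, chr1:134983301-135105276, minus strand), the third receptor of the family, had another pattern and was highest with RA in complete medium. It was at 6.93 and 7.76 CPM in Veh, 53.7 and 50.6 CPM in RA, 4.72 and 6.19 CPM in NR, and 10.5 and 11.5 CPM in NRRA. Both RA libraries stood above all others, and the order NR, Veh, NRRA and RA was free of overlap between neighbours. *Lgr6* rose in RA vs Veh by 2.83 ± 0.0963 on the log2 scale, a 7.09-fold change (edgeR adjusted p = 3.85e-18).

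Under nutrient restriction the same dose of RA gave a smaller rise of *Lgr6*, with a log2 difference of 1.00 ± 0.119 in NRRA vs NR. This is a 1.99-fold change (edgeR adjusted p = 1.25e-07) and lay just outside the threshold of a 2-fold change. With all libraries scaled by their totals the log2 difference was 1.08 and *Lgr6* was called. It was also beyond 2-fold without NR replicate 2 (1.21) or NRRA replicate 1 (1.06). The difference between the effects of RA in both media was -1.83 ± 0.164 (edgeR interaction test, adjusted p = 7.56e-09). *Lgr6* was accordingly 4.72-fold lower in NRRA than in RA (log2 difference -2.24 ± 0.0825, edgeR adjusted p = 5.18e-18). In NR vs Veh it was lower by a log2 difference of -0.41 ± 0.138 (edgeR adjusted p = 0.0183), which did not pass the test without Veh replicate 2 or without NR replicate 1.

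**Figure D1:**
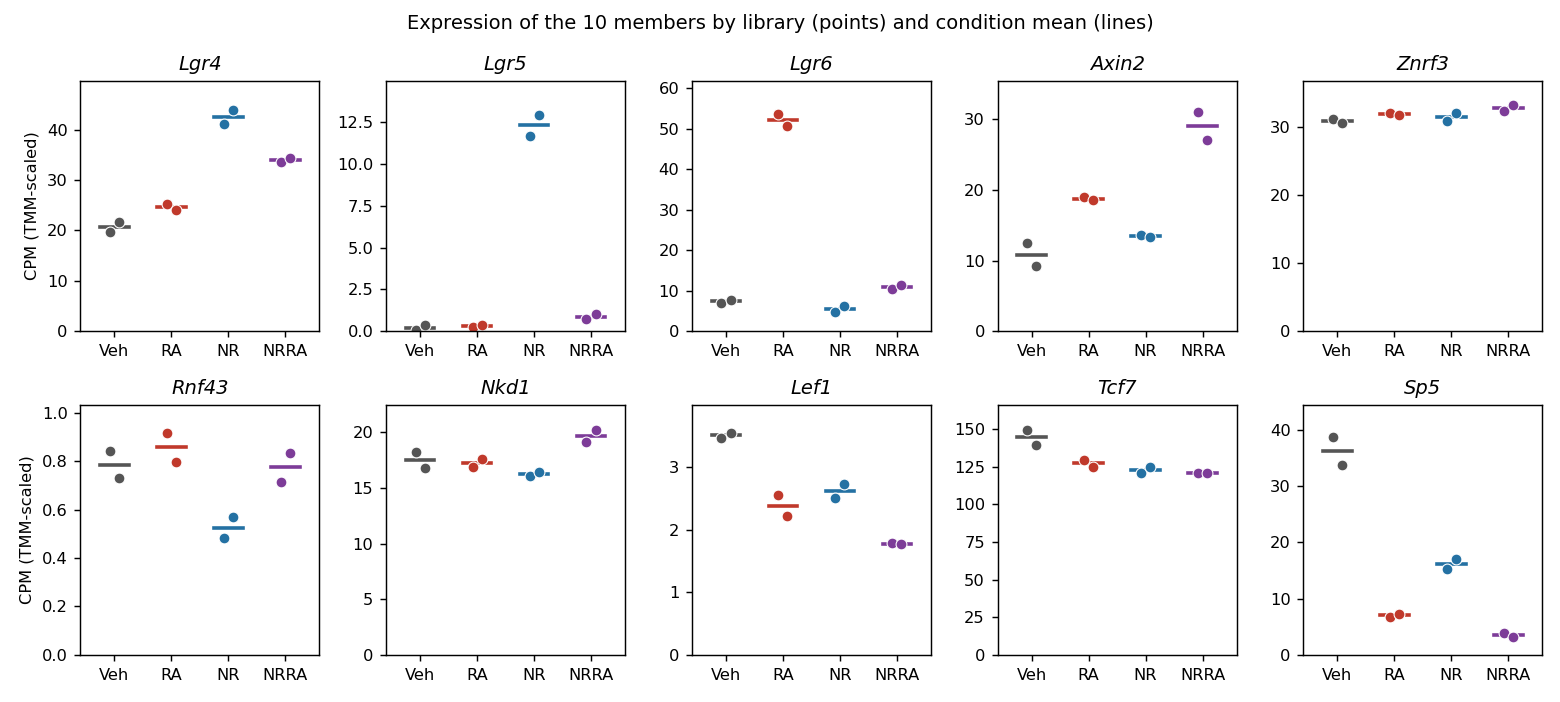
Level of each of the 10 genes in CPM (vertical axis, starting at 0, TMM-scaled) in the 4 conditions; each point is 1 library and each line the mean of 2. *Lgr5* is high in both NR libraries (11.7 and 12.9 CPM), *Lgr6* in both RA libraries (53.7 and 50.6 CPM), *Axin2* in both NRRA libraries (31.1 and 27.1 CPM) and *Sp5* in both Veh libraries (38.6 and 33.7 CPM).

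Per kilobase of exon, which allows levels to be compared between genes, the receptor with the highest mean level was *Lgr4* in Veh, NR and NRRA and *Lgr6* in RA. In Veh, *Lgr4* was at 3.52 ± 0.242 RPKM (CPM per kilobase of exon, mean ± SD, n = 2), *Lgr6* at 1.07 ± 0.0857 RPKM and *Lgr5* at 0.0202 ± 0.0217 RPKM. In RA, *Lgr6* reached 7.62 ± 0.320 RPKM and *Lgr4* 4.18 ± 0.159 RPKM. In NR, where *Lgr5* was highest, it reached 1.20 ± 0.0887 RPKM beside 7.23 ± 0.329 RPKM for *Lgr4* and 0.796 ± 0.151 RPKM for *Lgr6*. *Lgr5* at its highest was therefore above *Lgr6* and well below *Lgr4* in the same libraries.

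The R-spondin genes *Rspo1* to *Rspo4* encode the ligands of these receptors, and all 4 were measured. *Rspo2* was at 5.24 and 5.09 RPKM in Veh, 0.718 and 0.705 RPKM in RA, 6.52 and 6.83 RPKM in NR, and 0.524 and 0.484 RPKM in NRRA. Both conditions with RA lay far below both without it, and *Rspo2* fell with RA by 2.86 ± 0.106 on the log2 scale in complete medium (edgeR adjusted p = 2.03e-17) and by 3.73 ± 0.102 in restricted medium (edgeR adjusted p = 2.00e-20).

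*Rspo3* was highest in NR, at 8.83 and 8.10 RPKM, beside 3.53 and 3.29 RPKM in Veh, 2.90 and 2.93 RPKM in RA and 5.25 and 4.79 RPKM in NRRA. It rose in NR vs Veh by a log2 difference of 1.31 ± 0.0925 (edgeR adjusted p = 6.56e-12), and of its exon bases 13.1% overlap *Gm48159* on the opposite strand, whose reads could be counted with it. *Rspo1* rose in the same comparison by 1.43 ± 0.315 (edgeR adjusted p = 0.000550) from a mean of 0.327 to 0.886 RPKM. *Rspo4*, the R-spondin with the highest mean CPM in the list, was at 10.3 ± 0.237 RPKM in Veh and 6.27 ± 0.330 RPKM in NR (mean ± SD, n = 2) and was called in none of the 6 comparisons.

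**Figure D2:**
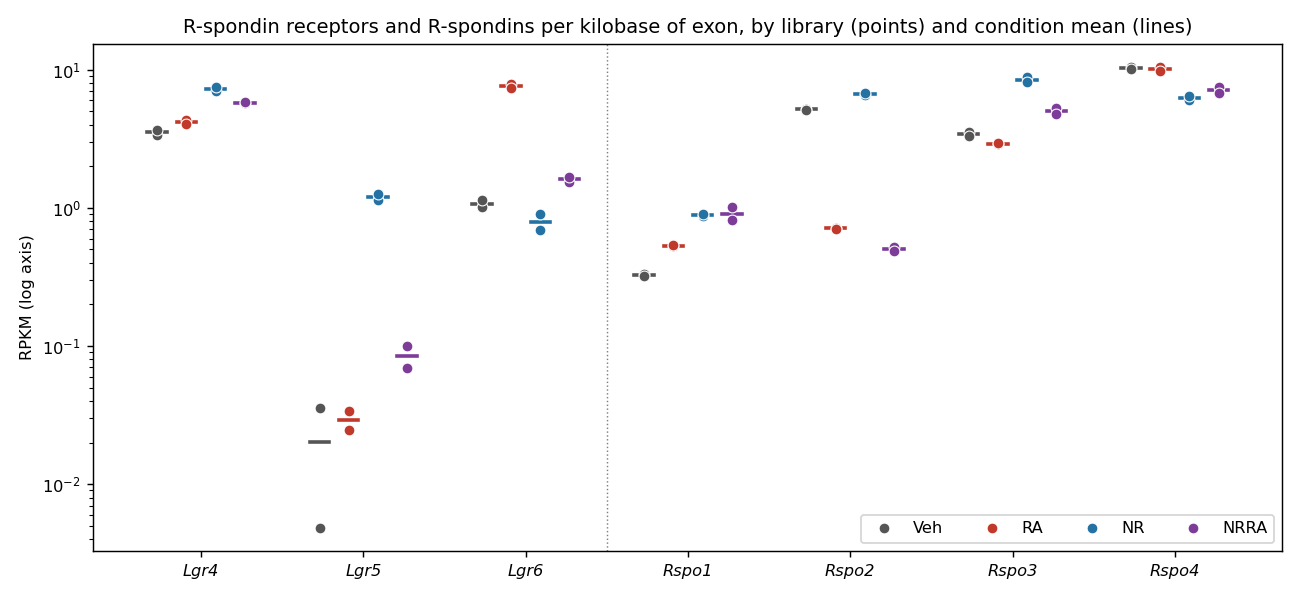
Levels of the R-spondin receptor genes (left of the dotted line) and of the R-spondin genes (right) in RPKM on a log axis; each point is 1 library and each short line the mean of 2. *Lgr5* and *Rspo3* have their highest means in NR (1.20 and 8.46 RPKM), while *Rspo2* is low in both conditions with RA (0.712 and 0.504 RPKM).

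The promoters of the members were inspected for motifs. Windows are printed for *Sp5*, which fell with RA in both media, and for *Axin2* and *Lgr6*, which rose. RefSeq windows from 250 bases before to 50 bases after the start site (GRCm38.p6) were matched for 8 of the 10 members, all but *Lgr5* and *Znrf3*, 13 windows in total. They were searched on both strands for the Tcf/Lef cores CTTTGAA and CTTTGAT, which do not overlap each other, and for DR5, the direct repeat of the half-site bound by RA receptors with a spacer of 5 bases. The windows of *Sp5*, *Axin2* and *Lgr6* follow in this order, each 5′ to 3′ in the direction of its gene, from chr2:70474673-70474972 (plus strand), chr11:108920099-108920398 (plus strand) and chr1:135105227-135105526 (minus strand), with capitals marking a Tcf/Lef core.
Sp5: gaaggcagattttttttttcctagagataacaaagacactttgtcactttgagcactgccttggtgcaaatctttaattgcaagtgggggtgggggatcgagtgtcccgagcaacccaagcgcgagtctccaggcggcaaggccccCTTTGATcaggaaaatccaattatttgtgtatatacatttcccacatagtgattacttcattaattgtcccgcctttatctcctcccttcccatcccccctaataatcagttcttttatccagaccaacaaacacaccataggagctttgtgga
Axin2: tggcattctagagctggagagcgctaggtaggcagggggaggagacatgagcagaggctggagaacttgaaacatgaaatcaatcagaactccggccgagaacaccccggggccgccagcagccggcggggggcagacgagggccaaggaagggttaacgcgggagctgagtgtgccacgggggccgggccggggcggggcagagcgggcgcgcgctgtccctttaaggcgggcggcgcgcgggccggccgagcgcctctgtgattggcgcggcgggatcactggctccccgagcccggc
Lgr6: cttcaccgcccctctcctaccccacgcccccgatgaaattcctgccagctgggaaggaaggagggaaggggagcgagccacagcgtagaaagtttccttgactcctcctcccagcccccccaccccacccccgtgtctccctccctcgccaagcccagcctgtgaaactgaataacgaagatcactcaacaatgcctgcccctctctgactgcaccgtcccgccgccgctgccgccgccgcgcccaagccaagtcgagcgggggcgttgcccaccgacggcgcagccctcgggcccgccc

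Of the 13 windows only that of *Sp5* held a core, CTTTGAT on the plus strand with its first base 104 bases before the start site. Among all 32851 promoter windows of this length, 3.73% held CTTTGAT, 5.14% held CTTTGAA and 8.65% held either. The exact form of DR5 was in no window of a member and in 3 windows of all (0.00913%), so its absence does not show that other forms are absent. These matches are a description of the letters in the windows.

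*Sp5* (ENSMUSG00000075304, chr2:70474923-70477729, plus strand), a target gene of the pathway that encodes a zinc finger transcription factor, fell with every treatment. It was at 38.6 and 33.7 CPM in Veh, 6.78 and 7.35 CPM in RA, 15.3 and 17.0 CPM in NR, and 3.89 and 3.15 CPM in NRRA. The order NRRA, RA, NR and Veh had no overlap between neighbours. *Sp5* fell by 2.35 ± 0.102 on the log2 scale in RA vs Veh (edgeR adjusted p = 5.60e-16), by 1.16 ± 0.0889 in NR vs Veh (edgeR adjusted p = 3.24e-11) and by 3.37 ± 0.111 in NRRA vs Veh (edgeR adjusted p = 3.11e-19), which is a 10.3-fold change.

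The fall of *Sp5* with RA was 2.21 ± 0.123 on the log2 scale in the restricted medium (edgeR adjusted p = 5.97e-14), and its difference from that in complete medium was 0.14 ± 0.172 (edgeR interaction test, adjusted p = 0.665). In NRRA vs RA *Sp5* was lower by a log2 difference of -1.02 ± 0.143 (edgeR adjusted p = 1.62e-06), just inside the threshold of the call. Without RA replicate 2 this value was -0.95 and without NRRA replicate 2 it was -0.87, and *Sp5* was then not called.

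*Axin2* (ENSMUSG00000000142, chr11:108920349-108950783, plus strand) encodes a scaffold of the complex that destroys β-catenin and is the classical feedback target of the pathway. It was at 12.5 and 9.17 CPM in Veh, 19.0 and 18.6 CPM in RA, 13.6 and 13.3 CPM in NR, and 31.1 and 27.1 CPM in NRRA. Both NRRA libraries were the highest and both Veh libraries the lowest, with RA above NR and no overlap between neighbours. *Axin2* rose in NRRA vs Veh by 1.42 ± 0.103 on the log2 scale, a 2.68-fold change (edgeR adjusted p = 4.88e-12).

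RA raised *Axin2* in both media, by 0.79 ± 0.111 on the log2 scale in complete medium (edgeR adjusted p = 2.22e-06) and by 1.11 ± 0.0950 in restricted medium (edgeR adjusted p = 3.00e-10). Without Veh replicate 1 the value in complete medium was 1.05 and *Axin2* was called. The difference between these effects was 0.33 ± 0.149 (edgeR interaction test, adjusted p = 0.166), and without Veh replicate 2, the lower of the Veh libraries, it was 0.49 (adjusted p = 0.0117). In NR vs Veh *Axin2* was higher by 0.31 ± 0.118 (edgeR adjusted p = 0.0361), a difference that did not pass the test with DESeq2 (adjusted p = 0.0821) or without Veh replicate 2, RA replicate 1 or either NR library. Of the exon bases of *Axin2*, 3.8% overlap *Gm11670* on the opposite strand. *Axin2* and *Sp5*, both targets of the pathway, thus moved in opposite directions in RA vs Veh, NR vs Veh, NRRA vs Veh, NRRA vs NR and NRRA vs RA.

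*Znrf3* (ENSMUSG00000041961) and *Rnf43* (ENSMUSG00000034177), the ligases countered by R-spondins, passed the test in none of the 6 comparisons. *Znrf3* was between 30.7 and 33.4 CPM in all 8 libraries, and its log2 differences from Veh were 0.04 ± 0.0668 in RA, 0.03 ± 0.0670 in NR and 0.09 ± 0.0649 in NRRA. *Rnf43* was near the limit of detection, with 10 to 26 counts per library, and its log2 difference in NR vs Veh was -0.57 ± 0.397 (edgeR adjusted p = 0.267). The depth does not allow changes of *Rnf43* of this size to be resolved.

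*Nkd1* (ENSMUSG00000031661), which encodes an inhibitor that binds Dishevelled, was between 16.1 and 20.2 CPM in the 8 libraries and highest in NRRA. It passed the test in NRRA vs NR alone, with a log2 difference of 0.27 ± 0.0803 (edgeR adjusted p = 0.00694, DESeq2 adjusted p = 0.0726). Its log2 differences from Veh were -0.02 ± 0.0857 in RA and -0.11 ± 0.0869 in NR.

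The transcription factor genes that act with β-catenin differed in level far more than in response. *Tcf7* (ENSMUSG00000000782) was at 144.6 ± 7.20 CPM in Veh, 127 ± 3.33 CPM in RA, 123 ± 3.07 CPM in NR and 121 ± 0.248 CPM in NRRA (mean ± SD, n = 2), and *Lef1* (ENSMUSG00000027985) at 3.51 ± 0.0540, 2.38 ± 0.233, 2.62 ± 0.162 and 1.78 ± 0.0147 CPM in the same order. Per kilobase of exon the mean levels in Veh were 55.1 RPKM for *Tcf7* and 0.399 RPKM for *Lef1*. For both genes the Veh libraries were the highest and did not overlap with those of any other condition.

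*Lef1* fell in NRRA vs Veh by 0.98 ± 0.195 on the log2 scale (edgeR adjusted p = 0.000109), just outside the 2-fold threshold. Its log2 differences in RA vs Veh and NRRA vs NR were both -0.57 (edgeR adjusted p = 0.0182 and 0.0235), and in DESeq2 neither passed the test (adjusted p = 0.119 and 0.118). *Tcf7* was lower than in Veh by log2 differences of -0.19 ± 0.0485 in RA (edgeR adjusted p = 0.00278), -0.23 ± 0.0486 in NR (edgeR adjusted p = 0.000284) and -0.26 ± 0.0480 in NRRA (edgeR adjusted p = 4.74e-05). With libraries scaled by their totals alone the difference of *Tcf7* in RA vs Veh was -0.08 and did not pass the test. Without 1 library it ranged from -0.22 to -0.11, the latter without Veh replicate 1. The values of *Lef1* without 1 library ranged from -0.66 to -0.46 in RA vs Veh and from -0.64 to -0.51 in NRRA vs NR. Of the exon bases of *Lef1*, 13.7% overlap *Gm43352* on the opposite strand.

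Counted over the 9 members other than *Lgr5*, RA vs Veh called 1 member higher (*Lgr6*) and 1 lower (*Sp5*), while 4.74% and 2.75% of all genes tested were called higher and lower. At an adjusted p under 0.05 alone, 3 members were higher and 3 lower, 6 of 9, where 43.2% of all genes passed. The median log2 difference of the 9 members was 0.04, beside -0.02 over all genes. In NRRA vs Veh *Axin2* was called higher and *Sp5* lower, beside 9.91% and 6.02% of all genes, with a median of 0.09 for the members and 0.03 for all genes. In NRRA vs RA no member was called higher and *Lgr6* and *Sp5* were called lower, beside 4.61% and 3.68% of all genes, and *Axin2* and *Lgr4* were higher at an adjusted p under 0.05 without reaching a 2-fold change.

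*Lgr5* chose the set by its values in NR vs Veh and in NRRA vs NR, so that nothing is read from the counts of members there. In NR vs Veh *Lgr4* was called higher and *Sp5* lower, where 5.33% and 2.96% of all genes were called, and in NRRA vs NR *Axin2* was called higher and *Sp5* lower, where 4.56% and 4.14% were. For the interaction, the difference between the effects of RA in both media, 0.786% of all genes were called higher and 1.46% lower, and of the members *Lgr6* was called lower. *Lgr4* also passed the test there without a 2-fold difference, and *Lgr5*, with no test, had the fitted log2 value of -4.40. At an adjusted p under 0.05 alone, the share of all genes that passed was 43.9% in NR vs Veh (5 members), 58.9% in NRRA vs Veh (6 members), 43.4% in NRRA vs NR (6 members), 40.3% in NRRA vs RA (4 members) and 13% for the interaction (2 members).

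**Figure D3:**
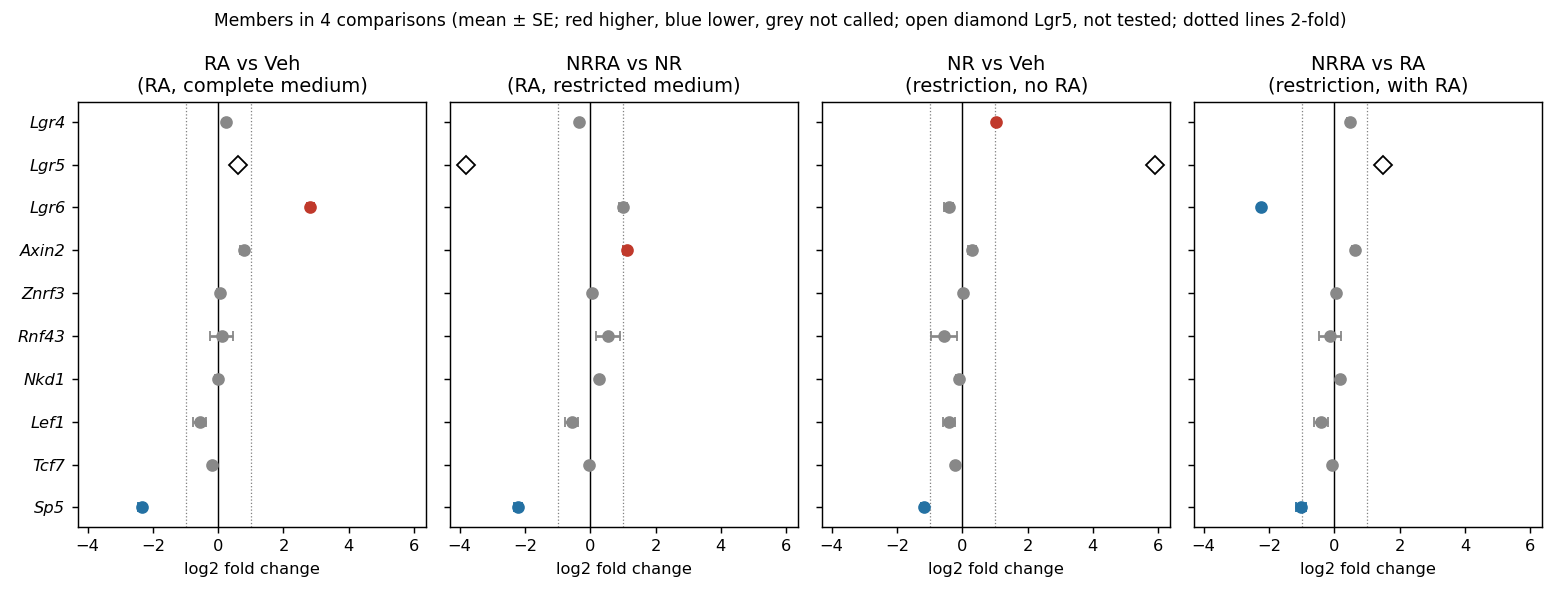
Log2 fold changes (horizontal axis) of the 10 genes in the comparisons RA vs Veh, NRRA vs NR, NR vs Veh and NRRA vs RA; points are fitted values with SE bars, red called higher, blue called lower, grey not called, dotted lines 2-fold, and the open diamond is *Lgr5*, which was not tested. *Sp5* is called lower in all 4 panels, and *Znrf3* and *Rnf43* are grey in all 4.

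The other genes of the pathway were described from 8 lists of 108 genes, of which 106 were found in the table and 98 were tested. These lists were drawn up with earlier results of the same data known. Of the 98 genes, 9 were called higher and 6 lower in RA vs Veh, 14 and 9 in NR vs Veh, 21 and 13 in NRRA vs Veh, 12 and 7 in NRRA vs NR, 15 and 10 in NRRA vs RA, and 8 and 2 for the interaction. Of all genes tested, in the same order, 4.74% were called higher and 2.75% lower, 5.33% and 2.96%, 9.91% and 6.02%, 4.56% and 4.14%, 4.61% and 3.68%, and 0.786% and 1.46%. Their median log2 differences were in this order -0.16, 0.07, 0.11, -0.03, 0.18 and 0.10, beside -0.02, 0.01, 0.03, 0.01, 0.02 and 0.02 over all genes.

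Of the Wnt ligand genes, 17 of 19 were tested. In NRRA vs NR 9 were called higher and 1 lower, where 4.56% and 4.14% of all genes were, with a median log2 difference of 1.52 beside 0.01 over all genes. In RA vs Veh 4 were called higher and 1 lower, where 4.74% and 2.75% of all genes were, with a median of -0.13 beside -0.02. Summed over the list, the level in NRRA was 1.07 times that in NR and 0.851 times that in Veh. *Wnt9a* was at 9.71 and 11.3 CPM in Veh, 14.3 and 16.3 CPM in RA, 12.6 and 10.3 CPM in NR and 61.0 and 61.7 CPM in NRRA. Both NRRA libraries thus stood far above the other 6, and the log2 difference in NRRA vs Veh was 2.55 ± 0.0878 (edgeR adjusted p = 7.86e-19).

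*Wnt2b* rose with RA in complete medium by 1.88 ± 0.146 on the log2 scale (edgeR adjusted p = 6.53e-11) and in restricted medium by 2.80 ± 0.133 (edgeR adjusted p = 2.43e-15). *Wnt3* fell in RA vs Veh by 1.56 ± 0.113 (edgeR adjusted p = 1.66e-11). *Wnt3a* was at 1 and 3 counts in NR and at 21 and 28 counts in NRRA, a ratio of pooled levels of 9.76 with a counting interval of 3.58 to 37.2. *Wnt5a*, a ligand known mainly for signalling without β-catenin, had the highest mean CPM of the list, between 118 and 232 CPM in all libraries, highest in Veh.

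Of the Wnt receptor genes, 15 were tested, and 1 was called higher in RA vs Veh, where 4.74% of all genes were. This was *Fzd4*, with a log2 difference of 1.04 ± 0.138 (edgeR adjusted p = 8.56e-07). In NR vs Veh, where 5.33% of all genes were called higher, *Ror1* and *Fzd8* were, by 1.53 ± 0.193 and 1.08 ± 0.0938 (edgeR adjusted p = 2.84e-07 and 3.67e-10). *Fzd10* was lower in NRRA vs Veh by -1.49 ± 0.0898 (edgeR adjusted p = 1.25e-13). *Lrp5*, the coreceptor gene with the highest mean CPM of the list, was between 148 and 195 CPM and was called in no comparison. *Porcn*, which encodes the enzyme that attaches a lipid to Wnt proteins, was called higher in NRRA vs Veh (log2 difference 1.29 ± 0.162, edgeR adjusted p = 1.32e-07), and *Wls*, the other gene of Wnt secretion, was not called in any comparison.

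Of the secreted and membrane inhibitors, 16 of 20 were tested, and 5 were called higher and 4 lower in NR vs Veh, where 5.33% and 2.96% of all genes were. *Sfrp4*, a decoy receptor that binds Wnt proteins, was at 0.248 and 0.417 CPM in Veh, 0.204 and 0.139 CPM in RA, 8.14 and 7.94 CPM in NR and 9.86 and 9.60 CPM in NRRA. It was low in both conditions with complete medium and high in both with restricted medium. The fitted log2 difference was 4.58 in NR vs Veh and 5.84 in NRRA vs RA. Every library in complete medium was under 1 CPM, which rests on few reads. *Sfrp4* thus passed the filter on low counts through the restricted conditions, and these values are given as a description. The level of *Sfrp4* in NRRA was not below that in NR, whereas that of *Lgr5* was.

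*Dkk2*, which encodes a modulator of the coreceptors, fell with RA in both media, by 1.71 ± 0.0624 on the log2 scale in complete medium (edgeR adjusted p = 1.50e-17) and by 2.50 ± 0.0686 in restricted medium (edgeR adjusted p = 2.17e-20). *Sfrp2* rose in RA vs Veh by 1.62 ± 0.0701 (edgeR adjusted p = 5.52e-16) and was lower in NRRA vs RA by -2.15 ± 0.0697 (edgeR adjusted p = 3.38e-19). *Apcdd1* fell in NR vs Veh by 1.82 ± 0.0642 (edgeR adjusted p = 2.78e-18). Of the exon bases of *Sfrp2*, 16.1% overlap *Gm26771* on the opposite strand.

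Inside the cell, 18 genes of β-catenin regulation and 11 nuclear factors were tested. *Dact2*, which encodes a Dishevelled-binding protein, was called higher with RA in both media, by 1.55 ± 0.0981 in RA vs Veh and by 1.66 ± 0.0922 in NRRA vs NR on the log2 scale (edgeR adjusted p = 1.23e-12 and 5.97e-14). Its relative *Dact1* was called higher in RA vs Veh and in NR vs Veh, by 1.02 ± 0.133 and 1.63 ± 0.124 (edgeR adjusted p = 6.75e-07 and 2.90e-11), with 34.9% of its exon bases overlapping *4930474H06Rik* on the opposite strand. *Ctnnb1*, the gene of β-catenin itself, was between 571 and 768 CPM and was called in no comparison, with 14.6% of its exon bases overlapping *Ulk4* on the opposite strand. No nuclear factor was called in any of the 6 comparisons.

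Among 15 other target genes tested, the mesoderm gene *T* (brachyury) behaved much as *Sp5* did. The Veh libraries held 121 and 146 of its reads, the RA libraries 16 and 13, the NR libraries 53 and 92 and the NRRA libraries 7 and 3, and relative to library size the conditions did not overlap. *T* fell by 3.49 ± 0.266 on the log2 scale in RA vs Veh (edgeR adjusted p = 4.85e-11) and by 1.15 ± 0.193 in NR vs Veh (edgeR adjusted p = 2.33e-05). *Cdx1*, a homeobox gene, had 4 and 0 counts in the Veh libraries, 38 and 25 with RA, 1 and 0 with restriction and 63 and 66 with both, and its pooled level in RA was 12.8 times that in Veh, with a counting interval of 4.76 to 48.4.

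*Ccnd1*, the cyclin D1 gene and the target gene with the highest mean CPM, was at 789 and 771 CPM in Veh, 1001 and 974 CPM in RA, 227 and 226 CPM in NR and 284 and 289 CPM in NRRA. It fell in NR vs Veh by 1.79 ± 0.0388 on the log2 scale (edgeR adjusted p = 7.95e-23), and of its exon bases 23.4% overlap *LTO1* on the opposite strand. *Bmp4* rose in the same comparison by 1.78 ± 0.0984 (edgeR adjusted p = 3.89e-14). In NR vs Veh, where *Lgr5* was 60.9 times higher, *Sp5*, *T*, *Ccnd1* and *Msx1* (-1.87) were called lower and *Bmp4* higher. Of all genes 2.96% were called lower and 5.33% higher. The median log2 difference of the 15 other target genes was -0.40, beside 0.01 over all genes. More of the named targets thus fell than rose, but they did not share a direction there.

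**Figure D4:**
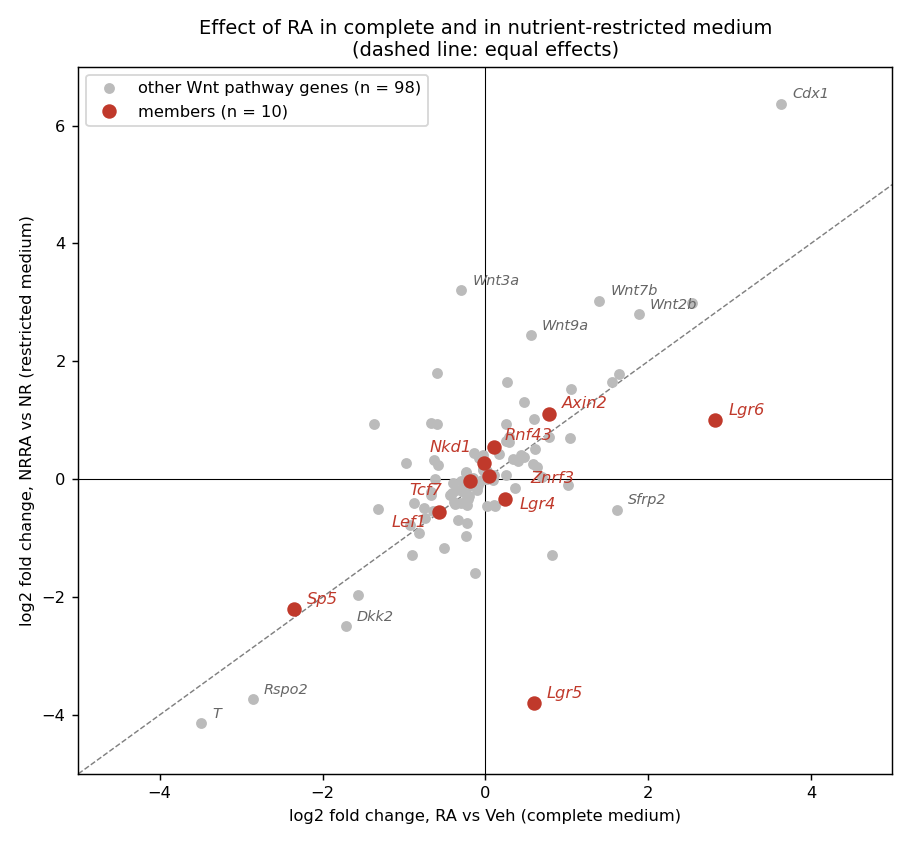
Log2 fold change of RA in complete medium (RA vs Veh, horizontal axis) and in restricted medium (NRRA vs NR, vertical axis) for the 10 members (red) and 98 other genes of the pathway (grey); the dashed line marks equal effects. *Sp5* lies near the line (-2.35 and -2.21), while *Lgr6* (2.83 and 1.00) and the untested *Lgr5* (0.59 and -3.80) lie below it.

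Among 14805 tested genes whose counts averaged 50 or more over the 8 libraries, those whose log2 CPM was most like that of *Lgr5* were *Gopc* (Pearson r = 0.994), *Vcan* (0.985), *Jak2* (0.984), *Tsc22d2* (0.981) and *Picalm* (0.981). These values are a description over libraries that share 4 conditions. *Vcan*, which encodes the matrix proteoglycan versican, had mean levels of 191 CPM in Veh, 194 CPM in RA, 553 CPM in NR and 249 CPM in NRRA (n = 2 libraries each). *Jak2*, a tyrosine kinase of cytokine receptors, was at 52.1, 52.6, 112 and 68.8 CPM in the same order. The level of *Gopc* in NR was only 1.34-fold that in Veh, so likeness of pattern did not mean likeness of size. Among the other members the same measure was 0.926 for *Lgr4*, -0.888 for *Rnf43* and between -0.634 and 0.0404 for the rest.

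The higher levels of *Lgr5* and *Lgr4* in NR went with a higher sum of the 11 fibroblast genes, which in NR was 2.15 times that in Veh. Abundant genes carry most of this sum, and the list did not move as one. In NR vs Veh *Col3a1* and *Postn* were called higher, with log2 differences of 1.54 and 1.68, *Twist2* was called lower (-1.48), *S100a4* was lower without a call (-0.87, edgeR adjusted p = 0.00282) and *Lum* did not pass the test (0.13). In NRRA vs Veh *S100a4* was called lower (-2.32). In NRRA this sum was 1.90 times that in Veh and 0.882 times that in NR, whereas *Lgr5* in NR was 14.1 times its level in NRRA. The 6 germ cell genes summed to 675 to 701 CPM in Veh and 799 to 835 CPM in NR. The sum of the 8 Sertoli cell genes in NR was 1.19 times that in Veh, and in NRRA it was 0.344 times that in NR. In NRRA vs NR 1 Sertoli cell gene was called higher and 1, *Sox9*, lower (-2.34), where 4.56% and 4.14% of all genes were. The fall of *Sp5* with RA went with a lower sum of 10 genes of undifferentiated spermatogonia, which in RA was 0.508 times that in Veh and in NRRA 0.415 times that in NR, while in NR, where *Sp5* also fell, it was 0.910 times that in Veh. The part of these cells and of feeder cell RNA in the levels of the members was not tested.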

How the data were processed

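RNA-seq of SSC culture was analysed in 4 conditions with 2 libraries each, grouped by the sample labels; the label EBSS is written NR and RA_EBSS is written NRRA. The authors deposited raw counts of reads per gene as whole numbers, without normalization. Their notes name bcl2fastq, STAR 2.6.1c, featureCounts 1.6.4 and the build mm10, and the use of strand in counting is not given in the sources used here, so counts of genes that overlap a gene on the opposite strand are uncertain.

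Counts were filtered with filterByExpr by condition, scaled with TMM and fitted with edgeR 4.0.16 (R 4.3.3, limma 3.58.1) over all 8 libraries with 1 coefficient per condition, which leaves 4 residual degrees of freedom. The quasi-likelihood F test was adjusted by the Benjamini-Hochberg method over 20477 genes, and the SE is the log2 value divided by the square root of F. The study itself used DESeq2, which served as an alternative (version 1.42.0). Other alternatives were other scalings, filters, sets of libraries, no fold threshold, a replicate block and leaving out each library. The method was tested on simulated data. Coordinates and exon lengths came from GENCODE M21 (55240 of 55421 identifiers found), and figures were drawn with matplotlib 3.10.9 in Python 3.11.15.

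The members and lists were chosen with earlier results of these data known. Named genes are all 10 members, up to 4 called genes with the largest change per pathway list and comparison, the gene with the highest mean CPM of each list, and the 5 genes most like *Lgr5*; of these not all are described. *Tiki2* and *Aes* had no match in the table. Replicates of each condition differed by more than sampling noise (chi-square per gene 1.58 to 3.93). Library totals give a precision at which genes under 1 CPM rest on about 20 to 30 reads or fewer.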

Additional observations from a re-analysis of the deposited data

Results flagged for a closer look

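The effect of RA on 2 of the 9 tested members differed between the restricted and the complete medium by the interaction test of edgeR. The adjusted p was under 0.05, as for 13% of all genes. The difference, the log2 effect in restricted medium minus that in complete medium, was -0.57 for *Lgr4* and -1.83 for *Lgr6*.

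The same test called 10 of the 98 other genes of the pathway with a difference of at least 2-fold, 8 higher and 2 lower. Of all genes, 0.786% were called higher and 1.46% lower. Of the 10 genes, 9 fall under the rule for named genes. The log2 difference was 3.51 for *Wnt3a*, which had 3 counts or fewer in each NR library, 2.40 for *Wnt2*, 1.88 for *Wnt9a* and 1.63 for *Wnt7b*, all ligands. Among the inhibitors it was 2.30 for *Sost*, which had 3 to 20 counts per library, -2.14 for *Sfrp2* and 1.53 for *Apcdd1*. It was -1.11 for *Dact1*, of which 34.9% of the exon bases overlap another gene, and 1.63 for the target gene *Tnfrsf19*.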

How the results depend on the processing

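Each value of the members was recomputed under every alternative, which gave 883 values. Of these, 818 kept their sign and their side of an adjusted p of 0.05, whatever their side of the 2-fold threshold. For *Lgr5*, which has no test, the sign had to stay and the shift to be under the largest replicate SD of the conditions compared. With no fold threshold the members called rose to 6 in RA vs Veh, 5 in NR vs Veh, 6 in NRRA vs Veh, 6 in NRRA vs NR, 4 in NRRA vs RA and 2 for the interaction, by the construction of that rule, under which 43.2%, 43.9%, 58.9%, 43.4%, 40.3% and 13% of all genes passed in the same order. Leaving out 1 library gave 1 to 2 called members in NR vs Veh and in NRRA vs RA and 2 to 3 in RA vs Veh and NRRA vs NR. The calls lost were *Lgr4* in NR vs Veh without Veh replicate 1 and *Sp5* in NRRA vs RA without RA replicate 2 or NRRA replicate 2, and the calls gained were *Axin2* in RA vs Veh without Veh replicate 1 (1.05) and *Lgr6* in NRRA vs NR without NR replicate 2 (1.21) or NRRA replicate 1 (1.06).

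The values that turned in sign were all near 0 or, for *Lgr5*, without a test, and the cause was not tested. *Nkd1* in RA vs Veh was 0.083 with library totals, 0.027 with the filter at a mean count of 50 and 0.013 with only both groups compared, and without 1 library it ranged from -0.057 to 0.064. *Lgr5* in RA vs Veh ranged from -0.21 without Veh replicate 1 to 2.54 without Veh replicate 2, and without the latter *Lgr5* was 4.02 in NRRA vs Veh and -6.36 for the interaction. *Rnf43* in NRRA vs Veh was 0.095 with library totals and -0.14 to 0.094 without 1 library. *Tcf7* in NRRA vs NR was 0.058 with library totals. The interaction of *Lef1* was -0.015 with DESeq2, -0.011 with median-ratio size factors, -0.016 with library totals and -0.047 with the filter at a mean count of 50, and -0.11 to 0.096 without 1 library. The interaction of *Znrf3* was -0.0029 with library totals and -0.034 with that filter, and -0.047 to 0.039 without 1 library, and that of *Sp5* was -0.011 to 0.30. With library totals the median of all genes moved from -0.02 to 0.08 in RA vs Veh and from 0.03 to 0.14 in NRRA vs Veh. On that scale *Znrf3* (0.20) and *Nkd1* (0.28) passed the test in NRRA vs Veh, and *Lgr6* (1.08) was called in NRRA vs NR. *Rnf43*, with a mean under 50 counts, was not tested under that filter.

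The replicate numbers of different conditions are shared in the labels without a stated link, and the replicate differences of different conditions had correlations between -0.0334 and 0.0225. With the replicate number as a block, 2 members were called in RA vs Veh, NR vs Veh, NRRA vs Veh, NRRA vs NR and NRRA vs RA and 1 for the interaction, as without it, and no call on a member changed. With 2 libraries per condition and 4 residual degrees of freedom, the estimates of spread rest on few libraries, and genes with few counts, *Rnf43* and *Lgr5* outside NR, are imprecise.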

Other observations

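The other marker lists were measured in the same libraries. The summed level of 10 genes of undifferentiated spermatogonia was 1106 to 1183 CPM in Veh, 575 to 588 CPM in RA, 1027 to 1056 CPM in NR and 427 to 437 CPM in NRRA. Of these 10 genes, 6 were called lower in RA vs Veh and 7 in NRRA vs NR, where 2.75% and 4.14% of all genes were. The 6 genes of differentiating spermatogonia summed to 243 to 258 CPM in Veh, 1181 to 1184 CPM in RA, 256 to 263 CPM in NR and 1644 to 1689 CPM in NRRA. The similar sums in Veh and NR did not mean that single genes were unchanged. In NR vs Veh 3 of the 6 were called higher and 0 lower, where 5.33% and 2.96% of all genes were. These were *Stra8* (log2 difference 3.44), *Kit* (1.91) and *Sohlh1* (1.07), while *Sohlh2* was lower without a call (-0.60). The summed level was 15.6 to 49.0 CPM for 8 Sertoli cell genes, 5.77 to 15.0 CPM for 5 Leydig cell genes, 203 to 288 CPM for 5 macrophage genes and 7.77 to 15.1 CPM for 4 endothelial genes over all libraries.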
